A study of Sus scrofa with 42 samples.

Results

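Histone acetylation is set by enzymes that add acetyl groups to lysines and by enzymes that take them off, and 10 genes for such enzymes were followed here through the first cleavages of the pig embryo. The 10 were picked by gene symbol, and earlier results of these data were known when they were chosen. They were the class I deacetylases HDAC1, HDAC2, HDAC3 and HDAC8, the class II deacetylase HDAC6, the sirtuin SIRT1, and the acetyltransferases EP300, CREBBP, KAT2A and KAT5. All 10 were among the 15351 genes of the deposited table, and 8 of them were among the 8116 genes that reached 1 FPKM (fragments per kilobase of gene, scaled to the reads of the cell) in at least 3 cells and were tested. HDAC6 and KAT5 stayed below that level.

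The cells came from pig oocytes that had been matured in culture and were then either fertilized in vitro (IVF) or activated without sperm (PA, parthenogenetic activation). PA embryos received an electric pulse and were held in 6-dimethylaminopurine and cytochalasin B, so that they carry maternal chromosomes but no paternal genome. Zygotes were taken at 19 h, and blastomeres were separated from 2-cell embryos at 27 h, 4-cell embryos at 48 h and 8-cell embryos at 72 h, counted from the end of the sperm incubation or from the pulse. Each method gave 3 zygotes, 6 blastomeres of 3 2-cell embryos, 9 blastomeres of 3 4-cell embryos and 3 blastomeres of 1 8-cell embryo, 42 cells of 20 embryos in all. Each cell was 1 library. From Y-chromosome expression the authors called all PA embryos female, and the IVF 8-cell embryo and some IVF 4-cell embryos male. HDAC6 and HDAC8 lie on the X chromosome, and the part of embryo sex in their values was not tested. The embryo was the replicate, so the 8-cell groups hold 1 embryo each, and tests that use them rest on the spread of the other groups.

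Acetylation loosens the contact between histones and DNA and is read by bromodomain proteins, which makes it a mark of active promoters and enhancers. The embryo starts with enzymes and mRNAs stored in the oocyte, and its own genome is switched on during the first cleavages while stored mRNAs are cleared, so a transcript level at these stages mixes stored and newly made RNA. HDAC1 and HDAC2 are close relatives that work in the same corepressor complexes, SIRT1 depends on NAD for its activity, and EP300 (p300) and CREBBP (CBP) are paired coactivators that acetylate enhancers.

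The DNA just before the start of 3 genes is shown because the differences between stages turn on them: EP300, SIRT1 and HDAC2. Each line gives the 250 bases before the gene start in the RefSeq annotation of Sscrofa11.1, 5′ to 3′ on the gene's strand, with 3 motifs in capitals wherever they occur on either strand. These motifs are the GC box with the letters GGGCGG, the CCAAT box, and the TATA box with the letters TATAAA, and none of the matches overlap.
EP300: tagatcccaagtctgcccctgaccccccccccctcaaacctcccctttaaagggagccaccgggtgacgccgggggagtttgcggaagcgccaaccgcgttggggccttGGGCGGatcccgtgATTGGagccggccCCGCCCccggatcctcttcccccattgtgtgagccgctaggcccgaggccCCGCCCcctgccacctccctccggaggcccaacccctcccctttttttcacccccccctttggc
SIRT1: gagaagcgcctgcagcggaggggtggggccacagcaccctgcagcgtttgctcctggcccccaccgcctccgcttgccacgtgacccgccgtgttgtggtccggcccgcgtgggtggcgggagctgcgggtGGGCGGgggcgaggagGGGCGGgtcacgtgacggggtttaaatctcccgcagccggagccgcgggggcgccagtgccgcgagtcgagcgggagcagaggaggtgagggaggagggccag
HDAC2: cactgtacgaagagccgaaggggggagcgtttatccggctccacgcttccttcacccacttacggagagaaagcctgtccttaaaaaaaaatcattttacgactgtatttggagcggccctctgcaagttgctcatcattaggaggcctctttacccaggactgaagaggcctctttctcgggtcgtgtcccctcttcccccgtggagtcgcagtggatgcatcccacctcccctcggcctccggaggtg
The EP300 window lies at chr5:7394516-7394765 on the minus strand and holds 3 GC boxes and 1 CCAAT box. The SIRT1 window lies at chr14:71090917-71091166 on the plus strand and holds 2 GC boxes. The HDAC2 window lies at chr1:79901598-79901847 on the minus strand and holds none of the 3 motifs. Of 19556 such windows before protein-coding genes, 45.9% held a GC box, 31.9% a CCAAT box and 9.77% a TATA box. Among the members, CREBBP had the most CpG dinucleotides in its window, 47, against a median of 12 over all windows, and HDAC8 the fewest, 4. The HDAC8 window alone among the 10 held a TATA box. The start of EP300 in the deposited table, chr5:7373440, lies 21075 bases inside the RefSeq gene, so RefSeq exons before that point were outside the table's gene model. SIRT1 starts at the same base in both annotations.

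Between 5267793 and 18054514 reads on genes stood behind each cell's values, with a median of 11644558. The PA 4-cell group holds 2 blastomeres whose profiles nearly repeat cells of another group: blastomere 4 of embryo 1 correlated at r = 0.999 with blastomere 2 of PA 2-cell embryo 1, and blastomere 1 of embryo 2 at r = 0.999 with blastomere 1 of PA 2-cell embryo 2, while none of the other 859 pairs of cells passed 0.908 (log2 values of 8116 genes). Many tests that turn on PA 4-cell embryos, and embryo values that shift, are therefore also given without these 2 blastomeres, a setting in which 8033 genes passed the filter. Where no such value is given, the result includes the 2 blastomeres. Genes of the mitochondrial genome took 6.07% to 63.0% of a cell's FPKM, and FPKM are shares of a cell's reads, so fewer transcripts of a gene and more RNA of other genes in the cell cannot be told apart. The 10 oocyte markers in the table, such as ZP3 and GDF9, summed to 259 to 1513 FPKM in the 4-cell and earlier cells and to 1.72 to 196 FPKM in the 8-cell blastomeres. The 6 cumulus cell markers in the table summed to at most 32.3 FPKM in a cell. Of genes used by every cell, ACTB had group means of 0.0115 to 0.805 FPKM and GAPDH of 0.00940 to 2.30 FPKM, while YWHAZ had 16.8 to 217.7 FPKM, so a value near 0 in this table does not show that a cell lacked the transcript.

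SIRT1 and HDAC2 supplied most of the summed FPKM of this set. Together they made up a median of 91.5% of the summed FPKM of the 10 genes over the 42 cells. The lowest share in a cell was 45.5%, and the medians of 4-cell blastomeres were 83.9% in IVF and 78.4% in PA. SIRT1 reached 1 FPKM in 41 cells and HDAC2 in 29, against 17 cells for HDAC1, 15 for EP300, 12 for CREBBP, 7 for KAT2A, 6 for HDAC3 and 4 for HDAC8. The summed FPKM of the 6 deacetylases lay above that of the 4 acetyltransferases in 41 of 42 cells. These sums depend on the genes picked. Among acetyltransferases outside the set, NCOA3 averaged 106.9, HAT1 50.4 and CLOCK 46.9 FPKM in IVF zygotes, while others, such as KAT2B at 0.0679 FPKM, were near 0. SIRT1 stood at the 93.3 to 99.2 percentile of the tested genes in the 8 group means and HDAC2 at the 84.1 to 99.4 percentile. By group means, SIRT1 and HDAC2 were highest at the 8-cell stage in both methods, EP300 was highest at the 4-cell stage in IVF and at the 8-cell stage in PA, and HDAC1, CREBBP and KAT2A were at most 0.124 FPKM at the 8-cell stage. Many tested genes were near 0 at that stage. In the IVF and PA 8-cell embryos HDAC1 stood at the 49.4 and 40.3 percentile of tested genes, against 54.7 and 60.6 in zygotes. CREBBP stood at 27.3 and 41.9, against 47.2 and 58.5 in zygotes, and KAT2A at 0 and 37.4, against 19.8 and 57.8.

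**Figure D1:**
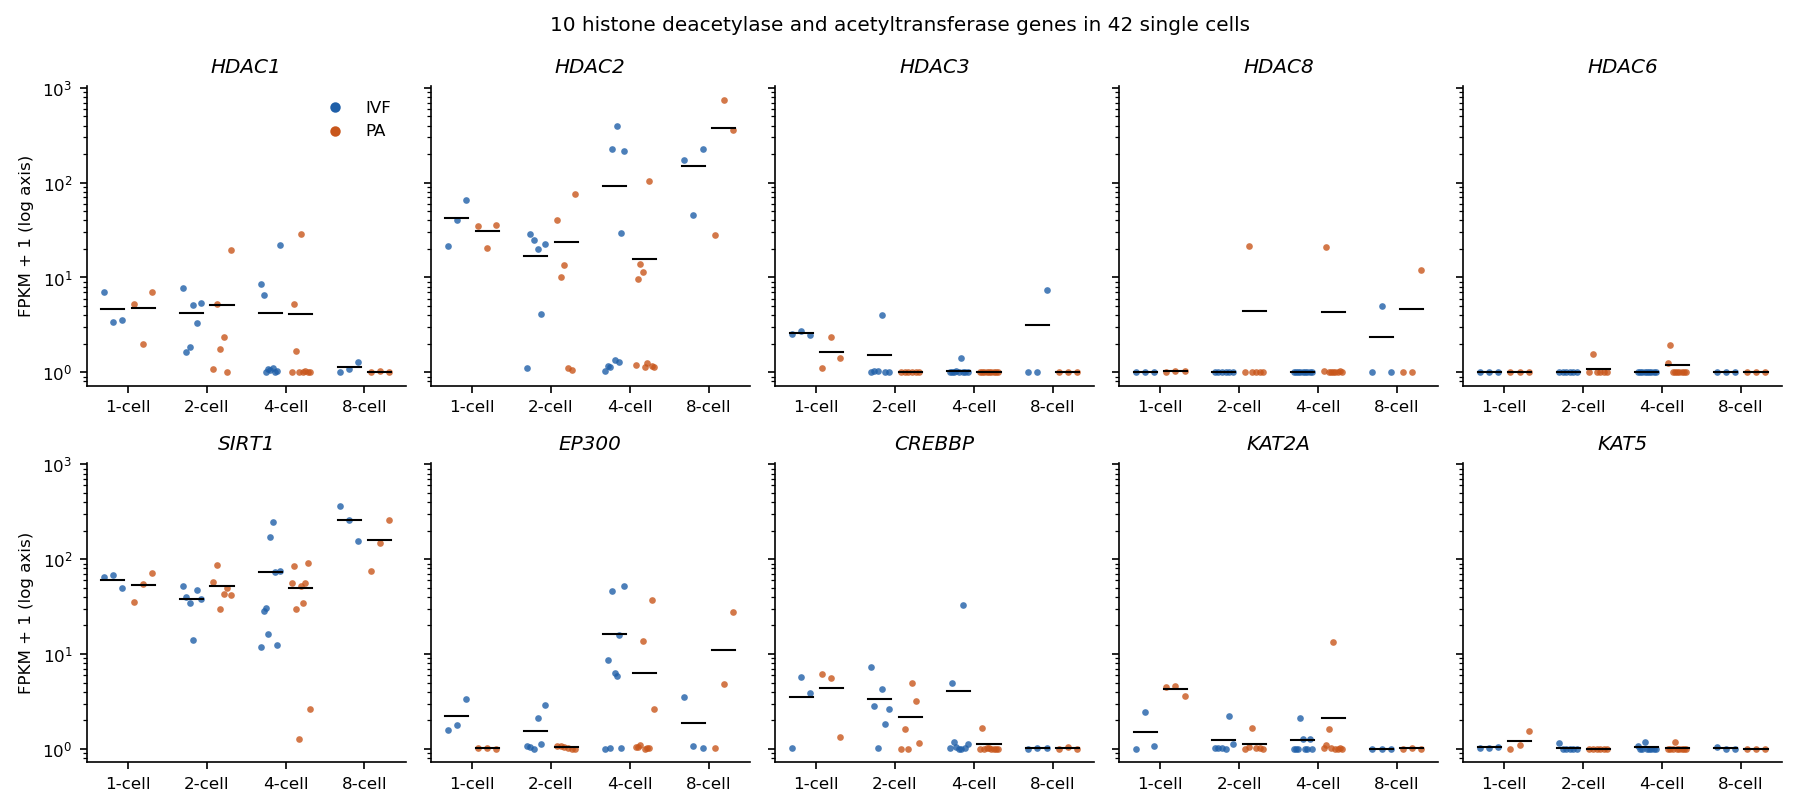
FPKM + 1 on a log axis for each of the 10 genes in 42 cells, grouped by stage, with IVF cells in blue and PA cells in orange; points are cells and black lines are the means of embryo values. SIRT1 and HDAC2 fill the upper range with 8-cell values of 73.8 to 359 and 26.9 to 751 FPKM, while HDAC6 and KAT5 lie along the floor.

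Only 2 increases passed the test over all genes. EP300 was higher in 4-cell than in 2-cell embryos, and SIRT1 was higher in 8-cell than in 4-cell embryos, each as the mean of the IVF and the PA step. Calls needed an adjusted p (limma, Benjamini-Hochberg over 8116 genes) below 0.05 and a change of at least 2-fold on the log2(FPKM + 1) scale. From 1-cell to 2-cell embryos, 0 of 8 members were called in the mean of both methods, 2 had an unadjusted p under 0.05, and 0% of all tested genes were called. From 2-cell to 4-cell embryos, 1 of 8 was called, against 4.14% of all tested genes, 1.79% higher and 2.35% lower. From 4-cell to 8-cell embryos, 1 of 8 was called, against 12.6% of all tested genes, 7.27% higher and 5.34% lower. The share of members called at the last step is thus near that of all genes. The same 2 members were called without the near copies, against 11.8% of all genes at the step to 4 cells (2.56% higher) and 10.8% at the step to 8 cells (7.54% higher).

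Within 1 method, none of the 8 members was called at any step in limma, and 1 to 3 of the 8 had an unadjusted p under 0.05. The shares of all genes called were 0% and 0.0986% for the step to 2 cells in IVF and PA, 1.11% and 0.394% for the step to 4 cells, and 6.97% and 9.99% for the step to 8 cells. The PA share for the step to 4 cells was 7.47% without the near copies, and no member was called there either, while 1 had an unadjusted p under 0.05. Between 8-cell and 1-cell embryos, 0 members were called while 14.3% (IVF) and 13.8% (PA) of genes were. The 8-cell embryo lay outside the range of the 3 1-cell embryos for 6 of 8 members in IVF and 8 of 8 in PA, against 77.3% and 73.1% of all tested genes.

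**Figure D2:**
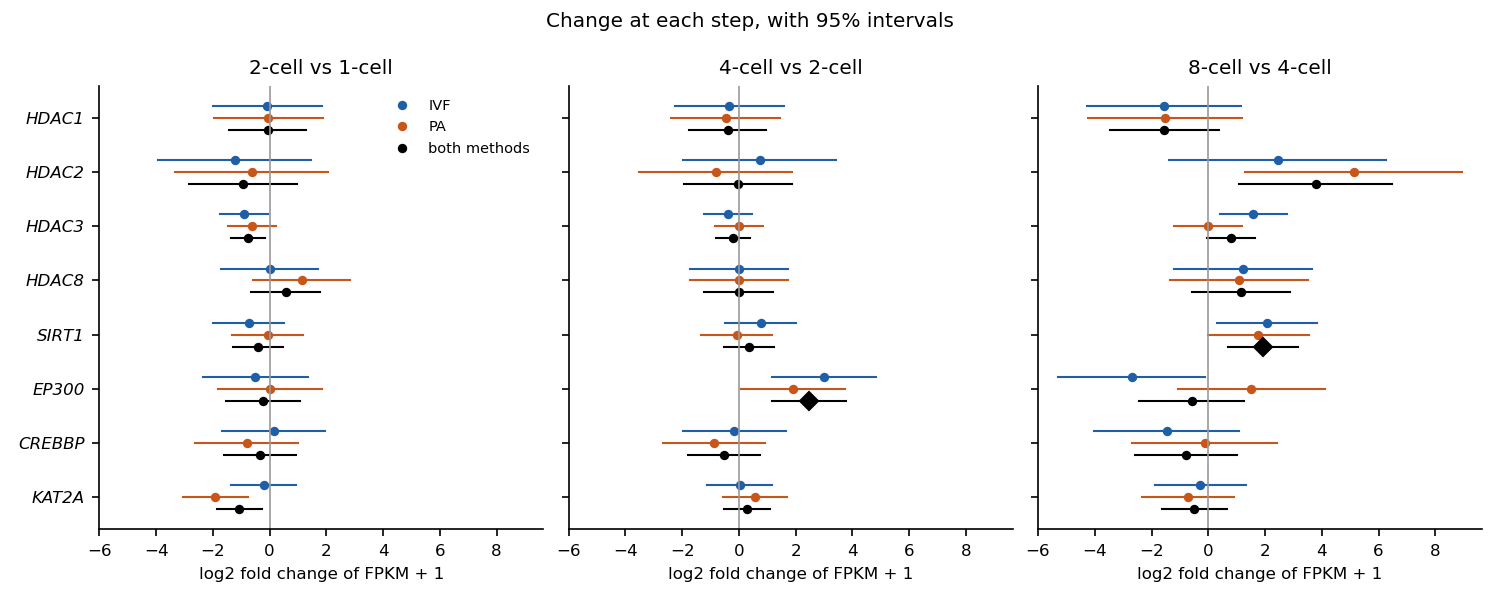
Log2 fold change of FPKM + 1 with its 95% interval for the 8 tested genes at each step, in IVF (blue), in PA (orange) and as the mean of both (black); diamonds mark the called changes. EP300 stands at 2.46 for 4-cell against 2-cell and SIRT1 at 1.93 for 8-cell against 4-cell.

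HDAC2 was present in all zygotes, differed widely between blastomeres at the 4-cell stage and had its highest group means at the 8-cell stage, where the increase did not pass the test. HDAC2 (ENSSSCG00000004432, chr1:79866670-79901587, minus strand) encodes a class I deacetylase of the Sin3, NuRD and CoREST complexes. The 3 IVF zygotes had 20.5, 39.9 and 65.0 FPKM and the 3 PA zygotes 34.2, 19.6 and 35.2 FPKM. In 2-cell embryos, means over blastomeres were 13.9, 21.2 and 12.4 FPKM in IVF embryos and 24.4, 6.35 and 37.1 FPKM in PA embryos. The groups overlapped at these stages.

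At the 4-cell stage the IVF embryos had 0.114, 113 and 160 FPKM and the PA embryos 4.38, 5.89 and 34.2 FPKM. PA embryos 1 and 2 were at 0.207 and 3.596 FPKM once the near copies were left out. The 3 blastomeres of the first IVF embryo held 1, 15 and 12 reads of HDAC2. In the third IVF embryo the 4 blastomeres had 396, 0.293, 28.3 and 215.9 FPKM, from 25143, 21, 3109 and 17036 reads. The highest of these sister cells had the highest IVF value of the series, above the IVF 8-cell blastomeres.

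All 6 8-cell blastomeres held HDAC2, at 171.6, 44.6 and 226.8 FPKM in the IVF embryo and 26.9, 751 and 361 FPKM in the PA embryo. The change from 4-cell to 8-cell embryos was 3.78 in log2 (95% interval 1.09 to 6.48, adjusted p = 0.0612) for both methods, 2.44 in IVF (adjusted p = 0.536) and 5.12 in PA (adjusted p = 0.0882). None of these passed the test as fitted. The PA 8-cell embryo lay above all 3 PA 4-cell embryos (57.6% of all tested genes had no overlap there, in either direction), while the IVF 8-cell embryo lay inside the range of the IVF 4-cell embryos. Over the 29 alternatives the adjusted p of the pooled change ran from 0.00279 to 0.529, and 10 of them called it. Without IVF 4-cell embryo 1 the pooled change was 2.63 (adjusted p = 0.0298), without embryo 2 4.30 (adjusted p = 0.0327), without embryo 3 4.42 (adjusted p = 0.0264) and without PA 4-cell embryo 3 it was 4.20 (adjusted p = 0.0362). Without the 2 near copies it was 4.24 (adjusted p = 0.0612), and the PA change 6.04 (adjusted p = 0.0632). The PA change was called without IVF 4-cell embryo 1 (adjusted p = 0.00337), whose values enter only through the pooled spread.

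HDAC2 differed more between sister blastomeres than most genes of its level. The median log2 difference between the highest and the lowest sister was 3.05 over 6 2-cell embryos and 5.06 over 6 4-cell embryos. Tested genes within 1.5 times its mean level had medians of 1.00 and 3.80, with quartiles of 2.75 and 4.90 at the 4-cell stage. The near copies are included in these medians.

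HDAC1, the partner of HDAC2 in the same complexes, had low FPKM throughout, lowest at the 8-cell stage, where many tested genes were near 0. HDAC1 (ENSSSCG00000003613, chr6:88749193-88786905, plus strand) averaged 3.68 ± 2.10 FPKM (SD, n = 3) in IVF and 3.77 ± 2.59 FPKM (n = 3) in PA zygotes. It was 3.19 ± 0.624 and 4.15 ± 4.42 FPKM in 2-cell embryos and 3.22 ± 2.77 and 3.07 ± 3.63 FPKM in 4-cell embryos (IVF and PA, n = 3 each). The 4-cell means came from few cells, since 5 of 18 blastomeres reached 1 FPKM and the highest, blastomere 3 of PA embryo 2, had 27.7 FPKM. Without its near copy, PA 4-cell embryo 1 was at 0.00857 FPKM in place of 2.11 FPKM. None of the 6 8-cell blastomeres passed 0.280 FPKM. The change from 4-cell to 8-cell embryos was -1.55 (95% interval -3.47 to 0.37, adjusted p = 0.331), and -1.33 without the near copies (adjusted p = 0.475). HDAC2 was above HDAC1 in 37 of 42 cells.

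The HDAC1 values carry a limit from the gene models. In the deposited table the end of HDAC1 shares 731 bases with MARCKSL1, a gene for a MARCKS-like actin-binding protein on the other strand, and in RefSeq the genes do not overlap. The setting for strand in the counting was not given in the sources used here, so reads from the shared bases cannot be assigned with certainty. The log2 values of HDAC1 and MARCKSL1 correlated at r = 0.890 over 42 cells, which share embryos and amplification. MARCKSL1 was also the gene with the pattern most like HDAC1 over 20 embryos (r = 0.912). Of the 17 cells with HDAC1 at 1 FPKM or more, 15 also had MARCKSL1 at 1 FPKM or more. The exceptions were blastomere 1 of IVF 4-cell embryo 1, with 7.50 FPKM of HDAC1 and 0.117 of MARCKSL1, and blastomere 2 of PA 2-cell embryo 2, with 1.37 and 0 FPKM. The part of MARCKSL1 reads in the HDAC1 values was not tested.

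**Figure D3:**
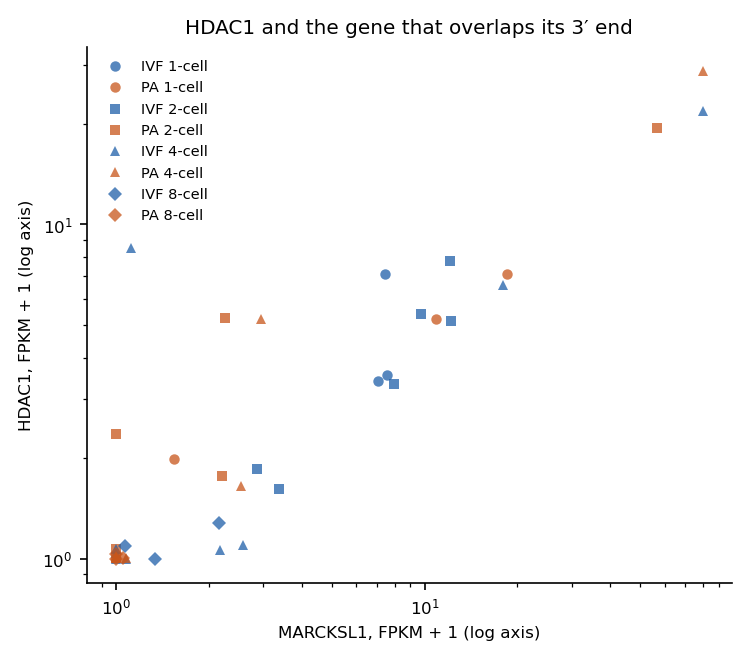
HDAC1 against MARCKSL1, FPKM + 1 on log axes, one point per cell, with colour for the method and shape for the stage. The cells with the most HDAC1, 18.4 to 27.7 FPKM, are those with the most MARCKSL1, 55.8 to 78.8 FPKM.

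HDAC3 reached 1 FPKM in 4 zygotes and 2 blastomeres. HDAC3 (ENSSSCG00000014388, chr2:143273190-143287905, minus strand) is the catalytic subunit of the NCoR and SMRT corepressor complexes. The IVF zygotes had 1.52, 1.72 and 1.48 FPKM and the PA zygotes 0.107, 1.36 and 0.410 FPKM, and these ranges did not overlap. The difference of 0.74 in log2 between IVF and PA zygotes did not pass the test (adjusted p = 1). All 18 PA cells from the 2-cell stage on were listed at 0. In IVF, blastomere 2 of 2-cell embryo 2 had 3.00 FPKM and blastomere 3 of the 8-cell embryo 6.36 FPKM, from 268 and 381 reads, while the other later blastomeres held at most 0.424 FPKM. The difference between 2-cell and 1-cell embryos was -0.77 (95% interval -1.37 to -0.17, adjusted p = 0.922).

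HDAC8 reached 1 FPKM in 4 cells. HDAC8 (ENSSSCG00000021200, chrX:58208873-58450380, minus strand) is the class I deacetylase that acts on cohesin. Its values were 20.3 FPKM in blastomere 2 of PA 2-cell embryo 1, 19.7 FPKM in the PA 4-cell blastomere that nearly repeats that cell, 11.098 FPKM in blastomere 4 of the PA 8-cell embryo and 4.04 FPKM in blastomere 2 of the IVF 8-cell embryo. Elsewhere it was at most 0.0428 FPKM, 5 reads. Without the near copies the PA 4-cell mean fell from 3.30 to 0.0175 FPKM. The 8-cell against 4-cell change was 1.15 (95% interval -0.56 to 2.87, adjusted p = 0.429), and 1.72 without the near copies (adjusted p = 0.0771).

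HDAC6, a mainly cytoplasmic deacetylase of tubulin, was listed at 0 in 39 of 42 cells. The 3 cells above 0 were PA cells: the same 2-cell blastomere and its near copy that held HDAC8, with 0.572 and 0.957 FPKM, and blastomere 3 of PA 4-cell embryo 1, with 0.255 FPKM. HDAC6 (ENSSSCG00000025545, chrX:42917386-42941887, plus strand) did not enter the test.

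SIRT1 was the member found in the most cells, at 1 FPKM or more in 41 of 42. SIRT1 (ENSSSCG00000010235, chr14:71091167-71122936, plus strand) is a nuclear NAD-dependent deacetylase of histones and transcription factors. Zygotes had 63.4, 67.5 and 49.1 FPKM in IVF embryos and 34.6, 54.1 and 69.8 FPKM in PA embryos. The 2-cell embryos had 45.3, 23.1 and 41.5 FPKM in IVF embryos and 71.6, 35.4 and 44.7 FPKM in PA embryos, and the IVF ones lay below all IVF zygotes (no overlap for 11.6% of all tested genes; change -0.74, adjusted p = 1). Sister cells of 2-cell embryos stayed close, with a median log2 difference of 0.45 over 6 embryos, against 0.71 for the 368 tested genes within 1.5 times its mean level. The table's model of SIRT1 overlaps that of HERC4 on the other strand, which reached 1 FPKM in 28 cells (r = 0.04 over cells). The part of HERC4 reads in the SIRT1 values was not tested.

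At the 4-cell stage the sisters spread apart. IVF embryos had 22.6, 93.4 and 101.8 FPKM and PA embryos 69.9, 28.3 and 48.8 FPKM (55.2 FPKM for the first PA embryo without its near copy), and single blastomeres ran from 0.259 to 248 FPKM. The median log2 difference between sisters was 3.88, near the 3.70 of tested genes at a like level. The blastomere with 0.259 FPKM, in PA embryo 2, held 25 reads of SIRT1 and was the 1 cell of 42 under 1 FPKM.

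Each 8-cell embryo then lay above all 4-cell embryos of its own method. The 3 IVF blastomeres had 359, 261 and 156 FPKM and the 3 PA blastomeres 73.8, 147 and 257 FPKM. The change from 4-cell to 8-cell embryos was 1.93 in log2 for both methods (95% interval 0.68 to 3.17, adjusted p = 0.0383), with 2.08 in IVF (adjusted p = 0.165) and 1.77 in PA (adjusted p = 0.239). The IVF and PA steps differed by 0.31 (95% interval -2.18 to 2.81, adjusted p = 1). Embryo values of the pooled stages did not overlap, as for 18% of all tested genes. Within IVF, 5 of 8 members did not overlap at this step, against 53.2% of all tested genes.

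This SIRT1 increase is marginal against the threshold. It was called in 21 of 29 alternatives, with adjusted p from 0.0172 to 0.330. It was lost with the median over blastomeres in place of the mean (1.86, adjusted p = 0.0535), with only the groups compared (adjusted p = 0.330), with the embryo number as a block (1.98, adjusted p = 0.0636) and with rescaled nuclear genes. With nuclear genes scaled to the same total, the change was 1.53 (adjusted p = 0.0814); mitochondrial genes took 26.9% to 53.6% of FPKM in the 8-cell blastomeres. Among 18 embryos left out in turn, the call was lost without IVF 1-cell embryo 2 (adjusted p = 0.0520), IVF 1-cell embryo 3 (adjusted p = 0.0509), PA 1-cell embryo 2 (adjusted p = 0.0512) and PA 4-cell embryo 2 (change 1.76, adjusted p = 0.0604). The change stayed at 1.93 where only 1-cell embryos were left out. Without the near copies it was 1.98 (adjusted p = 0.0480), and the PA change 1.88 (adjusted p = 0.246).

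EP300 rose between the 2-cell and 4-cell stages, from under 2 FPKM in every 2-cell blastomere to as much as 51.6 FPKM. EP300 (ENSSSCG00000000068, chr5:7312262-7373440, minus strand) encodes p300, an acetyltransferase of enhancer histones. IVF zygotes had 0.596, 0.778 and 2.33 FPKM, and PA zygotes at most 0.0295 FPKM, 8 reads. The 2-cell embryos had 0.0572, 0.570 and 1.02 FPKM in IVF embryos and 0.0680, 0.0316 and 0.00411 FPKM in PA embryos. The 4-cell embryos had 2.56, 25.04 and 17.8 FPKM in IVF embryos and 0.0405, 3.16 and 12.6 FPKM in PA embryos (4.19 FPKM for the second without its near copy). The table's model of EP300 overlaps that of a U6 small nuclear RNA on the same strand, which reached 1 FPKM in 1 cell (r = 0.39 over cells). The part of U6 reads in the EP300 values was not tested.

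All 3 IVF 4-cell embryos lay above all IVF 2-cell embryos (no overlap for 20.3% of all tested genes), while the lowest PA 4-cell embryo lay within the PA 2-cell range. That PA embryo has 2 blastomeres, 1 of them a near copy of a 2-cell cell, and its other blastomere had 0.0415 FPKM. The change from 2-cell to 4-cell embryos was 2.46 in log2 for both methods (95% interval 1.16 to 3.76, adjusted p = 0.0305), with 3.01 in IVF (adjusted p = 0.0866) and 1.91 in PA (adjusted p = 0.429). The IVF change was called without IVF 4-cell embryo 1 (3.89, adjusted p = 0.00874) and without PA 4-cell embryo 3 (3.01, adjusted p = 0.0430). The IVF and PA steps differed by 1.10 (95% interval -1.50 to 3.69, adjusted p = 0.942). Without the near copies the pooled change was 2.51 (adjusted p = 0.0130) and the PA change 2.02 (adjusted p = 0.181), and with nuclear genes scaled to the same total it was 2.46 (adjusted p = 0.0300).

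With both methods pooled, no member was free of overlap at this step (0 of 8, against 1.74% of all tested genes). At the 4-cell stage 9 of 18 cells reached 1 FPKM, up to 51.6 FPKM from 9466 reads, and sisters in the same embryos held as few as 0 to 5 reads. In the third IVF embryo the 4 blastomeres had 4.92, 14.8, 0.0157 and 51.6 FPKM. With the median over blastomeres in place of the mean, the change was 1.30 (adjusted p = 0.153).

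The EP300 call was held in 19 of 31 alternatives, with adjusted p from 0.00428 to 0.166. It was lost in 9 of 20 fits that left out 1 embryo. Without IVF 2-cell embryo 1, 2 or 3 the change was 2.34, 2.48 or 2.57 (adjusted p = 0.0822, 0.0611 and 0.0585). Without PA 2-cell embryo 1, 2 or 3 it was 2.47, 2.46 or 2.45 (adjusted p = 0.0534, 0.0570 and 0.0641). Without IVF 4-cell embryo 2 or 3 it was 2.18 or 2.30 (adjusted p = 0.0712 and 0.0564), and without PA 4-cell embryo 3 it was 2.01 (adjusted p = 0.0695). The direction was the same in every one of these fits.

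At the 8-cell stage EP300 had 2.49, 0.0734 and 0.0176 FPKM in the IVF blastomeres and 0.0237, 3.82 and 26.6 FPKM in the PA blastomeres. The change from the 4-cell stage was -2.69 in IVF (adjusted p = 0.233) and 1.52 in PA (adjusted p = 0.608; 1.41 and adjusted p = 0.734 without the near copies). The difference between these steps, -4.21 (95% interval -7.88 to -0.54), did not pass the test either (adjusted p = 0.247), nor without the near copies (-4.10, adjusted p = 0.256). From zygotes to the 8-cell embryo, EP300 differed by 3.45 in PA (95% interval 0.86 to 6.05, adjusted p = 0.0712). Of 19 fits that left out 1 embryo, 4 called that difference and 15 did not. It was called without IVF 4-cell embryo 1 (adjusted p = 0.0364) or 2 (adjusted p = 0.0496) and without PA 4-cell embryo 1 (adjusted p = 0.0430) or 3 (adjusted p = 0.0370). The values of these 4-cell embryos enter only through the pooled spread.

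**Figure D4:**
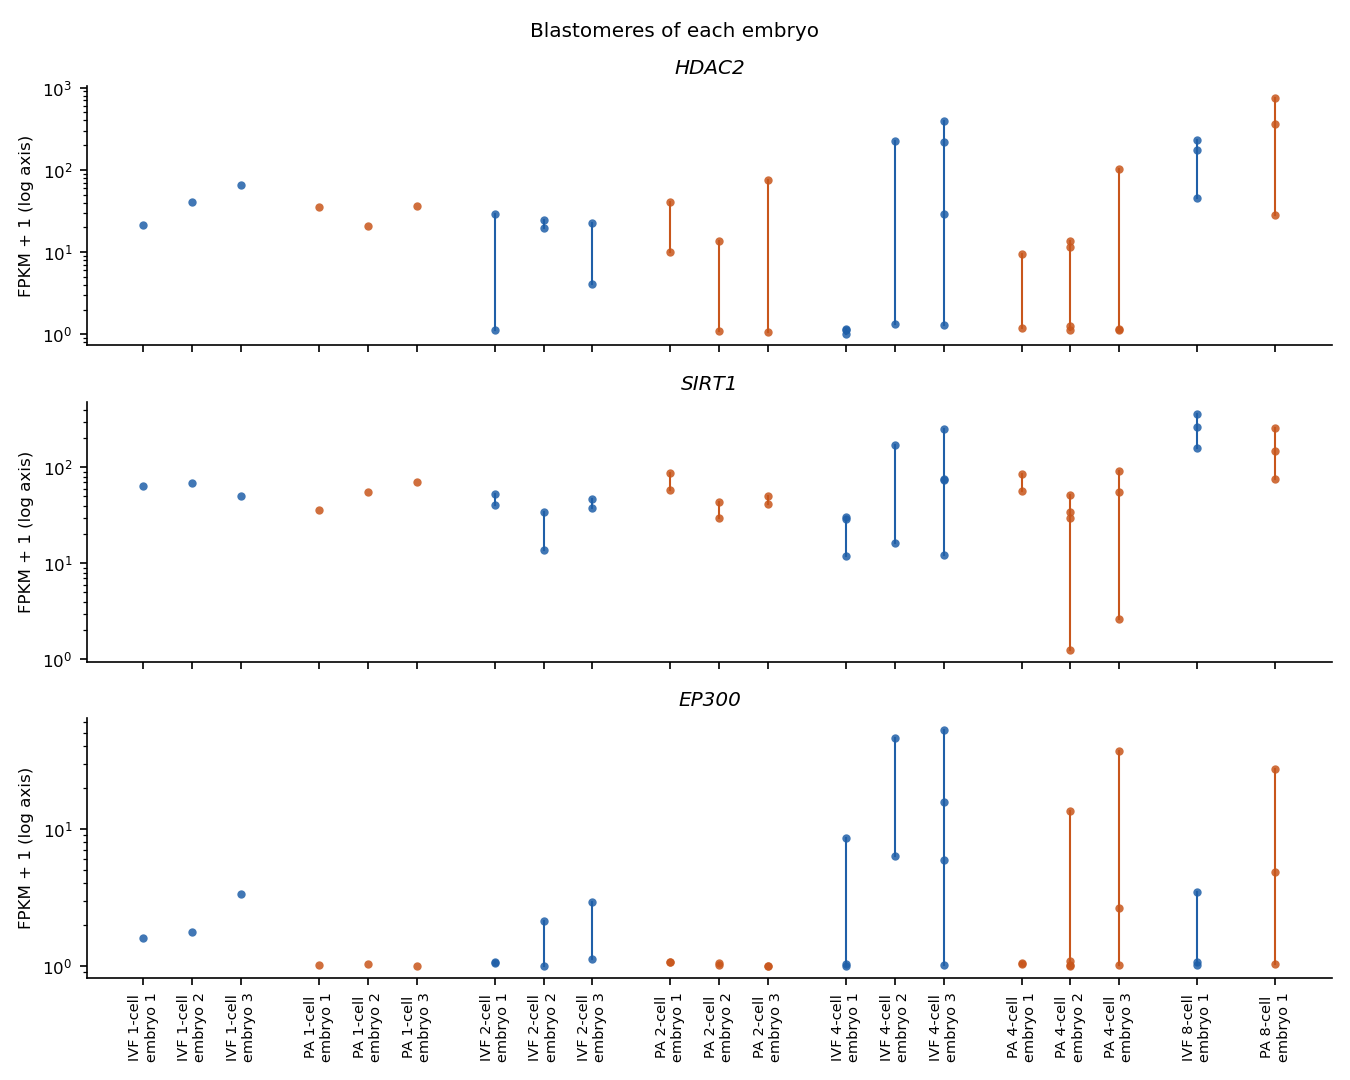
HDAC2, SIRT1 and EP300 in every blastomere, FPKM + 1 on a log axis, with one column per embryo and a line joining its blastomeres; blue is IVF and orange PA. Zygotes have 1 cell per embryo, and within 4-cell embryos HDAC2 runs from 0.293 to 396 FPKM and EP300 from 0.0157 to 51.6 FPKM in IVF embryo 3.

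CREBBP, the relative of EP300, reached 1 FPKM in 4 of 6 zygotes and was at most 0.0445 FPKM in 8-cell blastomeres. CREBBP (ENSSSCG00000007951, chr3:38387613-38529150, plus strand) had 0.0246, 4.73 and 2.84 FPKM in IVF zygotes and 5.14, 4.59 and 0.335 FPKM in PA zygotes. The 2-cell embryos had 4.05, 1.66 and 1.25 FPKM in IVF embryos and 0.315, 1.97 and 1.16 FPKM in PA embryos. At the 4-cell stage 2 of 18 blastomeres reached 1 FPKM, and blastomere 2 of IVF embryo 3 stood out with 31.6 FPKM from 6025 reads. No PA 4-cell blastomere passed 0.676 FPKM, a value of a near copy, and without the near copies the PA mean was 0.00358 FPKM. The 8-cell against 4-cell change was -0.79 (95% interval -2.60 to 1.01, adjusted p = 0.632).

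EP300 and CREBBP reached 1 FPKM together in 5 of 42 cells, EP300 alone in 10, CREBBP alone in 7 and neither in 20. CREBBP alone was found in zygotes and 2-cell cells, and EP300 alone in 4-cell and 8-cell cells. The log2 values of both genes correlated at r = 0.01 over 42 cells, a description over cells that share embryos.

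KAT2A was the one member with more transcript in every PA zygote than in any IVF zygote. KAT2A (ENSSSCG00000017414, chr12:20638568-20647993, plus strand) is GCN5, the acetyltransferase of the SAGA and ATAC complexes. PA zygotes had 3.44, 3.61 and 2.63 FPKM, and IVF zygotes 0, 1.47 and 0.0691 FPKM, so the groups did not overlap. The difference, IVF minus PA, was -1.61 in log2 (95% interval -2.75 to -0.47, adjusted p = 0.857), which did not pass the test over all genes. In PA the level was lower in 2-cell embryos, at 0.0233, 0.340 and 0.00395 FPKM, a change of -1.92 (95% interval -3.06 to -0.78, adjusted p = 0.537), with no overlap (11.9% of all tested genes). Later, blastomere 3 of PA 4-cell embryo 2 had 12.3 FPKM from 980 reads, the same cell that held the most HDAC1. In 8-cell blastomeres KAT2A was at most 0.0287 FPKM, 2 reads. Part of KAT2A lies within the table's models of RAB5C and DHX58, with which it correlated at r = -0.09 and 0.17 over cells.

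KAT5, TIP60 of the NuA4 complex, did not pass 0.543 FPKM in any cell. KAT5 (ENSSSCG00000012980, chr2:6564333-6572470, minus strand) was above 0 in 10 cells, and its highest value, in the third PA zygote, came from 37 reads.

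No tested member passed the test between IVF and PA embryos of the same stage. At the 1-cell stage 0 of 8 members were called in limma (0.0493% of all genes), and 1 had an unadjusted p under 0.05, KAT2A. The 3 embryos of each method did not overlap for 3 of 8 members, HDAC3, EP300 and KAT2A, against 17.9% of all tested genes. HDAC3 and EP300 were higher in IVF zygotes, EP300 by 1.06 in log2 (95% interval -0.78 to 2.89, adjusted p = 1), and KAT2A was higher in PA zygotes. At the 2-cell stage 0 were called (0% of all genes), 0 had an unadjusted p under 0.05, and 0 did not overlap (15.6% of all tested genes).

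At the 4-cell stage 0 of 8 were called (0.554% of all genes) and 0 had an unadjusted p under 0.05. Both counts were again 0 without the near copies, against 4.13% of all genes called. HDAC8 was the 1 member whose embryos did not overlap (12.7% of all tested genes), with IVF embryos at 0.00228 FPKM or less and PA embryos from 0.00964 to 9.88 FPKM. The highest of these falls to 0.0276 FPKM without the near copy, so that the separation rests on at most 2 reads per cell, and the difference of -1.16 becomes -0.02 (adjusted p = 1). EP300 differed by 1.63 in log2, IVF minus PA (95% interval -0.21 to 3.46, adjusted p = 0.436), HDAC2 by 1.32 (95% interval -1.37 to 4.02, adjusted p = 0.707) and CREBBP by 1.33 (95% interval -0.47 to 3.14, adjusted p = 0.530). These differences were, with the near copies left out, 1.52 (adjusted p = 0.351), 2.24 (adjusted p = 0.396) and 1.47 (adjusted p = 0.355). Without IVF 4-cell embryo 1, at 0.114 FPKM, the HDAC2 difference was 3.63 and was called (adjusted p = 0.0153). No member passed the interaction test of a step between the methods, in which 0%, 0% and 2.86% of all genes were called at the 3 steps and 1, 0 and 1 members had an unadjusted p under 0.05.

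At the 8-cell stage, with 1 embryo for each method and no test, HDAC2 averaged 148 FPKM in IVF and 380 FPKM in PA, and the IVF blastomeres lay inside the PA range. SIRT1 averaged 259 FPKM in IVF and 159 FPKM in PA. EP300 averaged 0.859 and 10.1 FPKM, HDAC8 1.35 and 3.70 FPKM, and HDAC3 2.12 FPKM in IVF and 0 in PA. HDAC1, CREBBP, KAT2A, KAT5 and HDAC6 each averaged at most 0.124 FPKM in both embryos.

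The 2 genes whose pattern over 20 embryos was most like that of each member were listed by correlation. For EP300 they were PRDX6 (r = 0.941) and PQBP1 (r = 0.900), for SIRT1 CPT1A (r = 0.828) and DCAF13 (r = 0.827), and for HDAC2 CLASP1 (r = 0.818) and SNRPE (r = 0.789). These embryos include the 2 near copies and differ in stage. Between members, HDAC2 and SIRT1 correlated at r = 0.75 over embryos and 0.35 over cells.

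Other genes of the pathway were counted in 6 lists. From 4-cell to 8-cell embryos, the list of deacetylase complex subunits had 5 of 29 tested genes called lower and 0 higher, with a median change of -1.06 against -0.29 over all tested genes, and 7.27% of all tested genes were called higher and 5.34% lower. With the near copies left out, 4 of 29 were called lower, against 3.22% of all genes. MTA3 of the NuRD complex changed by -4.87 (adjusted p = 0.000468), SIN3A, the scaffold of the Sin3 complex, by -4.08 (adjusted p = 3.56e-05) and TBL1XR1 of the NCoR complex by -3.58 (adjusted p = 0.000305). SIN3A averaged 2.20 FPKM in the IVF and 13.7 FPKM in the PA 8-cell embryo, against 137.8 and 107 FPKM in 4-cell embryos.

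In the other lists the counts were of 0 to 3 genes, to be read beside those shares of all genes and the median of -0.29. The other acetyltransferases (median change -0.95) had 0 of 10 tested genes called higher and 2 lower at this step, NCOA3 (-3.21, adjusted p = 0.000375) and CLOCK (-2.76, adjusted p = 0.00333), both transcriptional regulators with acetyltransferase activity. The acetyltransferase complex subunits (median -0.39) had 2 of 44 called higher and 1 lower, among them EPC2 of the NuA4 complex (4.32, adjusted p = 0.000118) and TADA2A of the ADA modules (-3.55, adjusted p = 0.00871). The acetyl-lysine readers (median -0.60) had 1 of 17 called higher and 3 lower, with MLLT3 at -4.05 (adjusted p = 0.00122). Without the near copies 0 readers were called higher and 2 lower, against 7.54% and 3.22% of all genes. The called counts of the other lists of this paragraph stayed the same in that setting. Of 6 genes that supply acetyl-CoA (median 0.66), 1 was called higher, PDHX of the pyruvate dehydrogenase complex (3.42, adjusted p = 0.0202). The other deacetylases (median -0.10) had 1 of 5 called higher and 0 lower, the mitochondrial sirtuin SIRT4, whose mean in the PA 8-cell embryo was 32.1 FPKM and in the IVF 8-cell embryo 0.

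At the step from 2 to 4 cells, 2 of 29 deacetylase complex subunits were called lower, of which SUDS3 of the Sin3 complex (-1.45, adjusted p = 0.0242) did not overlap between stages, and 1 of 44 acetyltransferase complex subunits, DR1, was called lower, against 2.35% of all tested genes. With the near copies left out, these counts were 2 of 29 and 6 of 44 called lower, against 9.19% of all genes. BRPF3 of the latter list was called higher in IVF (3.08, adjusted p = 0.0379). The counts also hold SAP30 at this step, and NCOR1, RBBP7, TADA2B, BRD7 and BRDT at the step to 8 cells. These genes, SIRT4 and DR1 are named after their values were seen, and all but NCOR1 overlapped between the pooled stages. The other 4 lists had 0 calls in limma at the step to 4 cells, and all 6 lists had 0 at the step to 2 cells. With the near copies left out, 1 of 6 acetyl-CoA supply genes was called lower at the step to 4 cells. In that setting 1 of 44 acetyltransferase complex subunits was called higher, against 2.56% of all genes. KAT2B, the relative of KAT2A, was picked out after its values were seen: it was below the filter, with group means of at most 0.0679 FPKM before the 8-cell stage and 23.0 and 13.3 FPKM in the IVF and PA 8-cell embryos. Fewer than 3 cells reached 1 FPKM of KAT2B, so each of these 8-cell means rests on 1 blastomere of 1 embryo.

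Between the methods, 1 of 29 deacetylase complex subunits and 1 of 44 acetyltransferase complex subunits were called at the 4-cell stage, both higher in IVF. The share of all tested genes called there was 0.554%. HMG20B of the CoREST complex averaged 56.9 FPKM in IVF and 0.978 FPKM in PA 4-cell embryos (4.52, adjusted p = 0.0327), and BRPF3, a subunit of MYST acetyltransferase complexes, 11.4 and 0.00790 FPKM (3.57, adjusted p = 0.0409). Both stood the other way round at the 8-cell stage, HMG20B with 0.399 FPKM in IVF and 53.5 FPKM in PA, and BRPF3 with 0.233 and 30.6 FPKM. Their 4-cell to 8-cell steps differed between the methods by -9.80 (adjusted p = 0.00378) and -8.25 (adjusted p = 0.00420). The steps also differed for SIRT4 (-4.65, adjusted p = 0.0202), RUVBL2 (-3.07, adjusted p = 0.0202), NCOA3 (4.89, adjusted p = 0.0186) and TADA3 (6.78, adjusted p = 0.00997). Without the near copies the differences at the 4-cell stage were 5.205 for HMG20B (adjusted p = 0.00150) and 3.57 for BRPF3 (adjusted p = 0.00721), and the steps of NCOA3 (adjusted p = 0.0673) and TADA3 (adjusted p = 0.166) no longer passed. In that setting more list genes were called higher in IVF at the 4-cell stage. They were 3 of 29 deacetylase complex subunits, 2 of 44 acetyltransferase complex subunits, 1 of 10 other acetyltransferases and 1 of 17 acetyl-lysine readers. Of all genes, 3.81% were called higher there.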

How the data were processed

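Single zygotes and blastomeres of pig IVF and PA embryos were sequenced by the authors after amplification with Ansuper-seq, mapped to Sscrofa11.1 with HISAT2 and counted with HTSeq, and the authors deposited FPKM per gene and cell. The annotation release and the strand setting of the counting are not given in the sources used here. The extraction text in the labels describes bulk RNA, and the procedure in the methods was taken to apply. Each gene's FPKM are whole multiples of the value of 1 read, which gave whole reads for 14689 of 14692 expressed genes within 0.01 reads. Amplified reads are not independent molecules, so precision was taken from the spread between embryos. Nothing says whether embryos came from separate culture runs.

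Blastomeres were averaged per embryo and log2(FPKM + 1) was computed. A filter of at least 1 FPKM in at least 3 cells left 8116 genes, which were fitted in R 4.3.3 by limma 3.58.1 with a mean-variance trend and all 8 groups in 1 fit. The script was tested on simulated data. The methods' DESeq2 needs counts and was not used. Adjusted p-values are Benjamini-Hochberg over all genes tested, for each of 17 comparisons. Calls needed an adjusted p below 0.05 and a fold of at least 2.

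The members and the lists of related genes were chosen with earlier results of these data known. Named list genes are those called, up to 3 per list and comparison, with the largest change and no overlap between embryos. The values of 1 list gene that was called are not reported here. The settings varied were the pseudocount (0.1 or 5), no filter, a filter at 5 FPKM, scaling of nuclear genes, median-ratio scaling, the mean log2 value or the median over blastomeres, only the groups compared, a replicate block, leaving out each embryo, and leaving out the near copies. Windows before gene starts were read from the RefSeq annotation of Sscrofa11.1, the build of the deposited table. Figures used matplotlib 3.10.9.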

Additional observations from a re-analysis of the deposited data

Results flagged for a closer look

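The cells of 1 gene in 1 group were examined in 35 sets of 6 or 9 cells. In 19 places a single cell stood far from the other cells of its group, and cells of an embryo share their source. In several of these places the other cells were at or near 0. There 1 read was enough for a cell to stand out, so the count of these places is not set against a chance rate. Above 1 FPKM these were HDAC1 at 27.7 FPKM and KAT2A at 12.3 FPKM in the same PA 4-cell blastomere (embryo 2, blastomere 3), HDAC8 at 20.3 FPKM in PA 2-cell embryo 1 and at 19.7 FPKM in its near copy in the PA 4-cell group, CREBBP at 31.6 FPKM in IVF 4-cell embryo 3, HDAC3 at 3.00 FPKM in IVF 2-cell embryo 2, and KAT2A at 1.196 FPKM in IVF 2-cell embryo 3 and 1.11 FPKM in IVF 4-cell embryo 2. SIRT1 was far below its group in 1 cell, at 12.9 FPKM in blastomere 2 of IVF 2-cell embryo 2, the cell with the high HDAC3. Under 1 FPKM they were HDAC3 at 0.424 FPKM in IVF 4-cell embryo 3, HDAC6 at 0.572 and 0.957 FPKM and CREBBP at 0.676 FPKM in the PA 2-cell cell or its near copy, KAT2A at 0.651 FPKM in PA 2-cell embryo 2, KAT5 at 0.142 FPKM in IVF 2-cell embryo 1, 0.190 FPKM in IVF 4-cell embryo 2 and 0.188 FPKM in PA 4-cell embryo 2, and HDAC8 at 0.0169 FPKM in IVF 2-cell embryo 1 and 0.00910 FPKM in IVF 4-cell embryo 3, both of 1 read.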

How the results depend on the processing

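Of 519 counts of called members under alternatives, 467 stayed within 1.5 times the count reported, and with 0 or 1 members called a change by 1 gene decides the rest. At the step from 2 to 4 cells with both methods, 0 members were called with the median over blastomeres, no filter or only the groups compared, and 2 with scaling by the median ratio, while leaving out 1 embryo gave 0 to 1. At the step from 4 to 8 cells with both methods, 0 were called with nuclear genes rescaled or only the groups compared, and 2 (HDAC2 and SIRT1) with a filter at 5 FPKM, the mean of log2 values, a pseudocount of 5 or the median ratio, while leaving out 1 embryo gave 0 to 2. For PA from 4 to 8 cells, 1 (HDAC2) was called with the mean of log2 values, the median over blastomeres, a pseudocount of 5 or the median ratio, and 0 to 1 without 1 embryo. Between 8-cell and 1-cell PA embryos, 3 were called with only the groups compared, 2 with the median ratio, 1 with the mean of log2 values, the median over blastomeres or a pseudocount of 0.1, and 0 to 2 without 1 embryo. Between 8-cell and 1-cell IVF embryos, 2 were called with only the groups compared, 1 with the median ratio, and 0 to 1 without 1 embryo. The median ratio also called 1 member (SIRT1) for PA from 2 to 4 cells, where the change of -0.07 turned to 3.36 (adjusted p = 0.0274); that scaling moved the median of all genes for this step from -0.17 to 0.27. Only the groups compared called 1 (HDAC3) in the interaction at the last step. Leaving out 1 embryo gave 0 to 2 for IVF from 2 to 4 cells and 0 to 1 for the methods compared at the 4-cell stage. Without the near copies 93 genes were called higher and 507 lower for PA from 2 to 4 cells, in place of 31 and 1, and 306 higher and 26 lower for the methods compared at the 4-cell stage, in place of 34 and 11, with the counts of called members as before. The cause of these changes was not tested.

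The replicate block (embryo number) called 1 member for PA from 4 to 8 cells (HDAC2, 6.12, adjusted p = 0.0301) and 1 between PA 8-cell and 1-cell embryos (EP300, 4.21, adjusted p = 0.0234), and at the last step with both methods it called HDAC2 (4.78, adjusted p = 0.0190) in place of SIRT1 (1.98, adjusted p = 0.0636). The numbers are not known to pair embryos, and whether they do was not tested. Deviations of same-numbered embryos correlated at a median of 0.0083 (45 pairs, -0.0410 to 0.355), and 4 of the 45 pairs passed 0.1. Embryos of other numbers correlated at a median of -0.0026 (90 pairs, -0.266 to 0.113). Of 18 embryos, 15 were on average closest to their own number among the 3 numbers, the PA 2-cell and 4-cell embryos with near copies included.

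With 1 embryo in each 8-cell group, the lone embryo was assumed to vary like the others. Low values rest on few reads, and differences between values near 0 were not detectable at this depth.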
